A study of Sus scrofa with 10 samples.

Results

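Carbonic anhydrase transcripts were measured by RNA sequencing in pig liver (Sus scrofa) during liver failure after hepatectomy. The set described here holds 5 genes, CA3, CA2, CA5A, CA4 and CA14, of 31905 in the deposited table. Each symbol had 1 row, and all 5 genes passed the filter for testing. The members were chosen by symbol around the loss of CA3 from failing liver, selected on the FPKM of these same libraries in untreated failure against normal liver. The change in untreated failure against normal liver is therefore given as a description for every member, with no test. For CA3 no test is given in any comparison that involves either of these groups. For the other members such comparisons were tested, but they share libraries with the one behind the choice, and their p-values are not independent of it. Day 8 of treatment with the cell-filled device against the empty device shares none. The filter and the estimate of spread used for it still draw on all 10 libraries, including those behind the choice.

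Carbonic anhydrases are zinc enzymes that interconvert carbon dioxide and water with bicarbonate and a proton. CA2 is the fast cytosolic form and CA3 a slow cytosolic form best known from skeletal muscle, fat and liver. CA5A sits in the mitochondrial matrix of hepatocytes, where the bicarbonate it makes feeds urea synthesis and gluconeogenesis. CA4 is held on the outer face of the cell membrane by a lipid anchor, often on capillary endothelium, and CA14 is a membrane-spanning form with its active site outside the cell.

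The 10 libraries came from wild-type livers in 5 groups: 3 of normal liver on day 0 (Control), 2 of liver failure without a device on day 2 (No-BAL), and 2 of liver failure with an empty device on day 3 (Empty-BAL). Livers of animals given a device filled with human induced hepatocytes gave 1 library on day 4 (hiHep-BAL-Day4) and 2 on day 8 (hiHep-BAL-Day8). The device, a bioartificial liver, works outside the body, and human induced hepatocytes are hepatocyte-like cells converted from another human cell type. The untreated group was set against normal liver to find genes of the failure, the cell-filled device to find which of these genes return, and the empty device to account for blood passing through it. Each group was sampled on a different day, so treatment and time cannot be told apart.

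The labels name hepatocytes but describe RNA from liver. With ALB and APOA1 the most abundant over all libraries, all 7 hepatocyte markers were found in every group. Their summed level per library was 85939 to 88502 FPKM (fragments scaled to gene length and to library total) in Control and 15059 to 24079 in No-BAL. It was 4475 and 7650 in Empty-BAL, 42186 in hiHep-BAL-Day4, and 27202 to 27370 in hiHep-BAL-Day8. FGB was above ALB in hiHep-BAL-Day4 (17066 against 9660 FPKM) and in No-BAL replicate 1 (9495 against 7337). In hiHep-BAL-Day4 FGB stood at 287% and APOA1 at 107% of Control, and the other markers at 8.26% to 87.4%. Replicates of Control and of hiHep-BAL-Day8 were alike (Pearson r of 0.992 to 0.994 across genes on the log2 scale), whereas the No-BAL pair (0.956) and the Empty-BAL pair (0.893) were less so. Nothing in the labels ties a library to an animal of its own, and each p-value is therefore read against variation between libraries that may be technical.

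CA3 was the most abundant carbonic anhydrase of normal liver and was near or at 0 in every library of the other groups. It was at 399, 402 and 394 FPKM in the Control libraries. In No-BAL it was listed at 0 and at 0.0986 FPKM. All values outside Control lay below 1.2 FPKM, and no library of any of those groups approached the Control range. Empty-BAL had 1.15 and 0.0355 FPKM, hiHep-BAL-Day4 had 0.765, and hiHep-BAL-Day8 had 0.947 and 0.438. As a share of the Control mean (398 ± 4.05 FPKM, SD, n = 3), CA3 stood at 0.0124% in No-BAL, 0.149% in Empty-BAL, 0.192% on day 4 and 0.174% on day 8. The summed hepatocyte markers moved in the same direction but far less, and their part in the levels of CA3, CA2 and CA5A was not tested. In bulk tissue, fewer cells that make a transcript and less transcript per cell cannot be told apart.

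On the scale used for testing, log2(FPKM + 1), CA3 had a log2 change of -8.57 ± 0.29 (SE) in No-BAL against Control. The changes were -8.06 ± 0.29 in Empty-BAL and -7.90 ± 0.29 in hiHep-BAL-Day8. Since every value outside Control is close to the added 1, the sizes depend on that constant, and with 0.1 in its place they were -11.46, -9.92 and -9.05. The order of the groups by mean was Control, hiHep-BAL-Day4, hiHep-BAL-Day8, Empty-BAL and No-BAL, and beyond Control the libraries of neighbouring groups overlapped.

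The cell-filled and empty devices share no library with the comparison in which the loss of CA3 was seen. CA3 was at 0.692 ± 0.360 FPKM (n = 2) in hiHep-BAL-Day8 and 0.592 ± 0.787 (n = 2) in Empty-BAL, and the groups overlapped. The gene reached 1 FPKM in only 4 libraries, the 3 of Control and Empty-BAL replicate 1, so it passed the filter through Control alone. The limma comparison of these groups therefore sets values near 0 against each other, and nothing is read from it. Its log2 difference was 0.17 ± 0.32 with 1 added to the FPKM and 0.87 with 0.1 added, and was not called with either (adjusted p = 0.71 and 0.47).

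Among genes abundant in normal liver, so complete and lasting an absence was seen for few. Of 805 genes with a Control mean of at least 100 FPKM, 10 were under 1% of Control in No-BAL, 8 in Empty-BAL, 6 in hiHep-BAL-Day4 and 12 in hiHep-BAL-Day8. CA3 was in each of these sets, and 1 other gene was, ENSSSCG00000018734, which has no symbol and was listed at 0 in every library outside Control. The median gene of the 805 stood at 52.7%, 28.9%, 70.9% and 57.0% of Control in the 4 groups. These shares are descriptions, since CA3 was chosen for its loss.

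**Figure D1:**
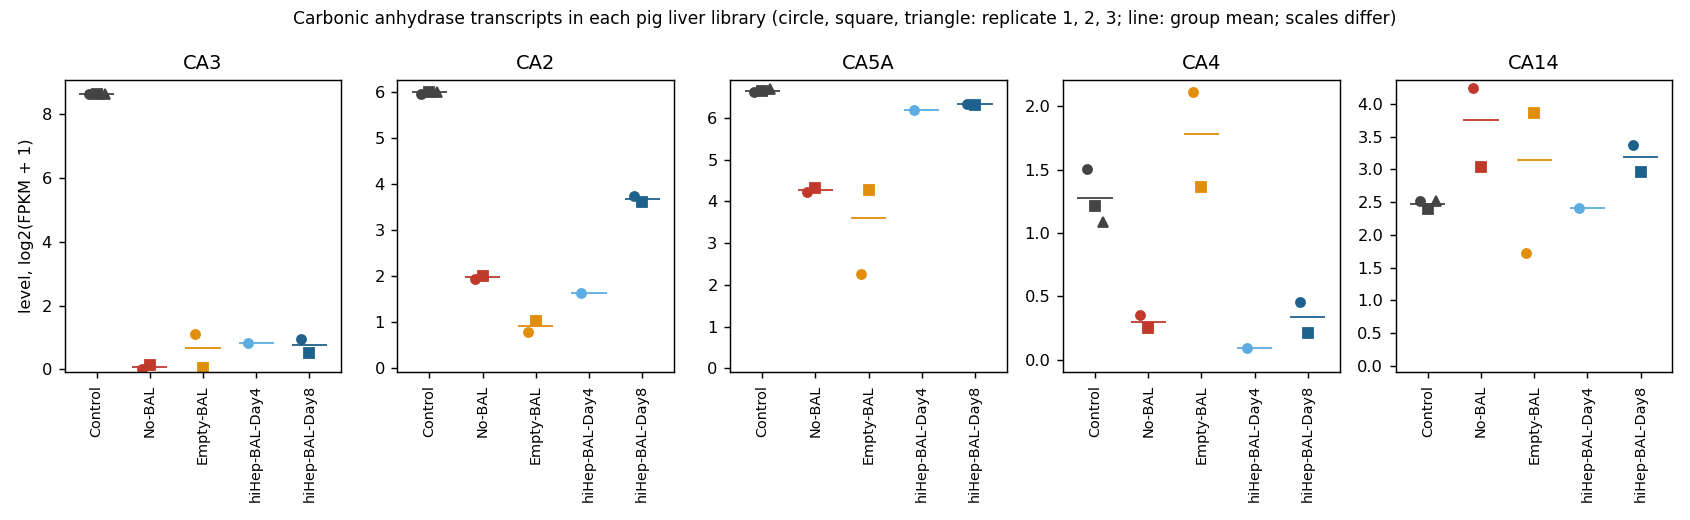
Level of each carbonic anhydrase member, as log2(FPKM + 1), in each of the 10 libraries by group, with replicates 1, 2 and 3 as circle, square and triangle and the log2 of the group mean + 1 as a line; the vertical scales differ between genes. CA3 lies near 0 in every group but Control, CA2 is intermediate on day 8, and CA5A on days 4 and 8 lies close to Control.

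Because CA3 is also a muscle and fat gene, markers of those tissues were read beside it. Of 13 skeletal muscle markers 9 were found, and in Control the contractile genes were at or near 0: CKM, TNNT3 and MYLPF were listed at 0 in all 3 libraries, and ACTA1 reached at most 0.0712 FPKM. The summed muscle level, 220 to 236 FPKM in Control and 70.7 to 172 elsewhere, came almost wholly from PYGM and PVALB, the genes of a muscle glycogen phosphorylase and of a calcium buffer. PVALB was at 67.7, 69.1 and 61.3 FPKM in Control, was listed at 0 in No-BAL, Empty-BAL and hiHep-BAL-Day4, and was at 0.962 and 1.16 in hiHep-BAL-Day8. Of the 7 fat cell markers 6 were found. In Control ADIPOQ and LEP were listed at 0 and the sum was 15.01 to 17.4 FPKM, against 5.67 to 79.8 in the other groups. Over all libraries CIDEC, a lipid droplet gene, and FABP4 were the most abundant of that list. In Control CIDEC had a mean of 13.5 FPKM, and FABP4 was at most 0.105. The sum of the list was at or above the Control range in both No-BAL libraries and below it on days 4 and 8.

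CA2 was also far lower in failing liver than in Control, but was partly present again on day 8. It was at 61.3, 63.3 and 63.3 FPKM in Control, and at 2.82 and 3.01 in No-BAL. Empty-BAL had 0.716 and 1.03 FPKM, the lowest values of the series. On day 4 it was at 2.07 FPKM, and on day 8 at 12.4 and 11.2. No 2 groups overlapped, and their order was Control, hiHep-BAL-Day8, No-BAL, hiHep-BAL-Day4 and Empty-BAL.

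The CA2 mean on day 8, 11.8 ± 0.802 FPKM (n = 2), was 18.8% of the Control mean of 62.6 ± 1.15 (n = 3). Against Empty-BAL it was 13.5-fold higher, a log2 change of 2.78 ± 0.15 (adjusted p = 3.8e-05 by limma). Against No-BAL, at 2.91 ± 0.131 FPKM, it was 4.05-fold higher (log2 change 1.71 ± 0.15, adjusted p = 0.00014 by limma). It remained below Control (log2 change -2.31 ± 0.14, adjusted p = 3.8e-05 by limma).

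In Empty-BAL, at 0.872 ± 0.221 FPKM, CA2 was lower than in Control (log2 change -5.09 ± 0.14, adjusted p = 1.8e-06 by limma). It was also lower there than in No-BAL, by 3.34-fold (log2 change -1.07 ± 0.15, adjusted p = 0.0041 by limma). That second difference was not called when the replicate number was used as a block (adjusted p = 0.071) or when only the 4 libraries of the pair were fitted (adjusted p = 0.16). The descriptive change of CA2 in No-BAL against Control was -4.02 ± 0.14.

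CA2 is also a gene of red cells and bile duct cells. Of the 9 red cell markers 6 were found, and HBB made up nearly all of their sum. The sum was 155 to 182 FPKM in Control, 182 and 26.3 in No-BAL, 152 and 4.63 in Empty-BAL, 293 on day 4, and 113 and 105 on day 8. The 2 No-BAL libraries differed in it by far more than in CA2, and so did the Empty-BAL libraries. Of the other red cell genes, CA1 was listed at 0 in 9 of 10 libraries, with 0.370 FPKM in Control replicate 3. The 7 bile duct markers found of 8, led by SLC4A2 and KRT7, summed to 54.0 to 59.0 FPKM in Control, 42.4 to 62.8 in No-BAL, 147 to 152 in Empty-BAL, 56.0 on day 4, and 88.6 to 90.4 on day 8. Their sum was highest in Empty-BAL, where CA2 was lowest. The part of either cell type in the CA2 levels was not tested.

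CA5A, the mitochondrial form, was lower in failing liver and nearer the normal level in the livers treated with the cell-filled device. It was at 97.8, 98.4 and 102 FPKM in Control, and at 17.7 and 19.0 in No-BAL. The Empty-BAL libraries were apart, at 3.78 and 18.4 FPKM. On day 4 it was at 71.4 FPKM, and on day 8 at 79.1 and 78.4. Control, day 8, day 4 and No-BAL followed in that order without overlap, whereas No-BAL and Empty-BAL overlapped.

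On day 8 the CA5A mean of 78.8 ± 0.5003 FPKM (n = 2) was 79.2% of the Control mean of 99.4 ± 2.36 (n = 3), and the day 4 library stood at 71.8%. Day 8 was 7.11-fold above Empty-BAL, at 11.07 ± 10.3 FPKM (log2 change 3.05 ± 0.54, adjusted p = 0.0037 by limma). Without Empty-BAL replicate 1 that change was 2.04 and without replicate 2 it was 4.06, both called, and with only the 4 libraries of the pair fitted it was not called (adjusted p = 0.064). It was 4.30-fold above No-BAL, at 18.3 ± 0.924 FPKM (log2 change 2.05 ± 0.54, adjusted p = 0.016 by limma). Without any single library of No-BAL or hiHep-BAL-Day8 the latter call was lost, at adjusted p = 0.057 to 0.073, with the change at 2.00 to 2.10.

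Both day 8 libraries lay below all Control libraries for CA5A, and whether that difference was called depended on the fit. Against Control the day 8 level was not called (log2 change -0.33 ± 0.49, 95% interval -1.47 to 0.80, adjusted p = 0.65 by limma). The SE there carries the gap between the 2 Empty-BAL libraries. Without either of them the same difference had adjusted p = 0.022, and with only Control and hiHep-BAL-Day8 fitted it had adjusted p = 0.00028. In Empty-BAL, CA5A was below Control (log2 change -3.38 ± 0.49, adjusted p = 0.00089 by limma). That change was -2.37 without Empty-BAL replicate 1 and -4.39 without replicate 2, both called. Its difference from No-BAL was not called (log2 change -1.005 ± 0.54, adjusted p = 0.18 by limma), and was 0.0044 without Empty-BAL replicate 1 and -2.01 without replicate 2, the latter with adjusted p = 5.9e-05. The descriptive change in No-BAL against Control was -2.38 ± 0.49.

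The 3 members that were abundant in normal liver thus stood at different shares of Control on day 8. Of 506 genes with a Control mean of at least 10 FPKM that were under 25% of Control in both No-BAL and Empty-BAL, the day 8 mean had a median of 30.9% of Control and quartiles of 13.4% and 57.8%. CA3 was among the lowest, with 499 of the 506 genes above it. CA2 had 343 genes above it, and CA5A had 68. In the day 4 library, 31 of the 506 stood above CA5A and 473 above CA2. Shares of a common Control mean were used for all of these genes, which is a description and not a test.

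**Figure D2:**
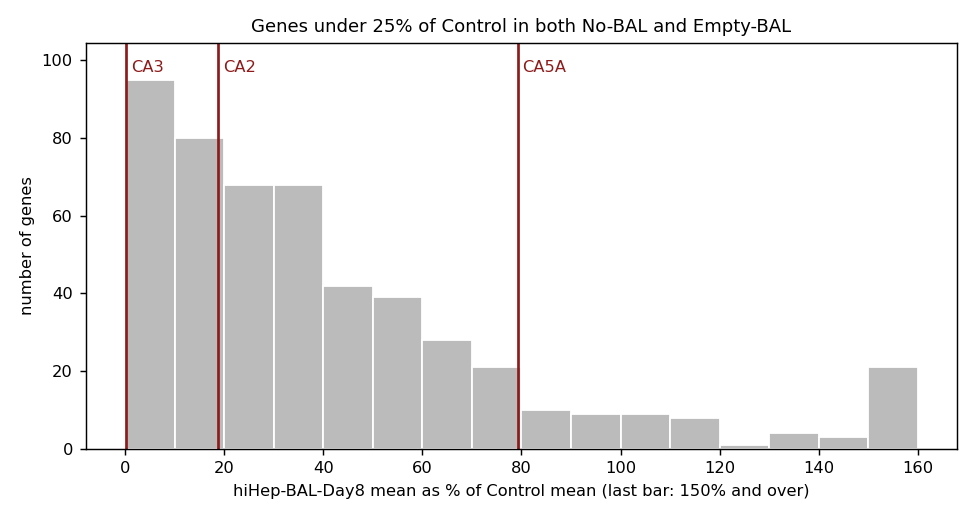
Number of genes by their hiHep-BAL-Day8 mean as a percentage of the Control mean, among the 506 genes with a Control mean of at least 10 FPKM that were under 25% of Control in both No-BAL and Empty-BAL; the last bar holds all genes at 150% and over. The vertical lines mark CA3 at 0.174%, CA2 at 18.8% and CA5A at 79.2%.

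The surface forms, CA4 and CA14, were scarce in normal liver and followed other patterns. CA4 was at 1.84, 1.31 and 1.124 FPKM in Control, and at 0.277 and 0.188 in No-BAL. It was highest in Empty-BAL, at 3.31 and 1.57 FPKM. On day 4 it was at 0.0687 FPKM, and on day 8 at 0.368 and 0.155. Empty-BAL overlapped with Control, and day 8 with No-BAL. CA4 reached 1 FPKM in 5 libraries, those of Control and Empty-BAL, and passed the filter only through these groups. The filter thus favours calls that set Control or Empty-BAL above No-BAL or day 8, and nothing further is read from such calls.

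CA4 was lower on day 8, at 0.262 ± 0.150 FPKM (n = 2), than in Empty-BAL, at 2.44 ± 1.23 (n = 2), with a log2 change of -1.40 ± 0.26 (adjusted p = 0.0043 by limma). It was higher in Empty-BAL than in No-BAL, at 0.232 ± 0.0631 FPKM (log2 change 1.43 ± 0.26, adjusted p = 0.0076 by limma). With only the 4 libraries of each pair fitted, neither was called (adjusted p = 0.053 and 0.15). Against Control, at 1.43 ± 0.372 FPKM, the day 8 level was lower (log2 change -0.94 ± 0.23, adjusted p = 0.018 by limma). That call was lost without Control replicate 1 (adjusted p = 0.062) and without hiHep-BAL-Day8 replicate 1 or 2 (0.068 and 0.14).

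The remaining CA4 comparisons were not called. Day 8 and No-BAL differed by 0.03 ± 0.26 (95% interval -0.56 to 0.62, adjusted p = 0.94 by limma), with all 4 libraries near 0. Empty-BAL against Control gave 0.47 ± 0.23 (adjusted p = 0.13 by limma), but was called without Empty-BAL replicate 2 (log2 change 0.84, adjusted p = 0.0086) and with upper-quartile scaling (0.62, adjusted p = 0.049). The descriptive change in No-BAL against Control was -0.97 ± 0.23. Most CA4 values are under 2 FPKM, where the added 1 shrinks every change. With 0.1 added the called changes were -2.79 on day 8 against Empty-BAL, 2.86 in Empty-BAL against No-BAL and -2.11 on day 8 against Control, all still called.

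Since CA4 marks capillary endothelium, the endothelial list was read beside it. The 7 of 8 markers found, led by CLEC4G and PECAM1, summed to 252 to 281 FPKM in Control, 76.7 to 115 in No-BAL, 149 to 186 in Empty-BAL, 52.8 on day 4, and 154 to 155 on day 8. CLEC4G, a gene of the liver sinusoids, made up most of the sum in Control, at 203 to 233 FPKM, and was at 7.65 and 2.29 in No-BAL. The other 6 markers had higher means in No-BAL than in Control, of which KDR was called (log2 change 0.66, adjusted p = 0.033 by limma). PECAM1 was at 17.9 to 19.4 FPKM in Control, 26.5 and 56.6 in No-BAL, 73.3 and 20.1 in Empty-BAL, and 48.2 and 49.96 on day 8. All 7 macrophage markers were found, led by CD14 and C1QB. Their sums were 921 to 1022 FPKM in Control, 185 to 418 in No-BAL, 674 to 883 in Empty-BAL, 999.6 on day 4 and 735 to 740 on day 8. CD14 was the highest of the 7 in every library outside Empty-BAL. Of the 7, 6 were called higher in Empty-BAL than in No-BAL, beside 12.6% of all genes. CD68, CD163, MARCO and CSF1R were called 4.59-fold to 20.7-fold higher in Empty-BAL than in Control, and CD14 lower. The part of either cell type in the CA4 levels was not tested.

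CA14 was the one member whose mean was not below Control in any group of more than 1 library. It was at 4.71, 4.26 and 4.74 FPKM in Control. No-BAL had 17.9 and 7.19 FPKM and Empty-BAL 2.30 and 13.5, so replicates within each of these groups differed widely. The day 4 library was at 4.33 FPKM, within the Control range, and day 8 at 9.37 and 6.78, above it.

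None of the 5 tested CA14 comparisons was called by limma, and 0 of the 5 had an unadjusted p under 0.05. The log2 changes were 0.69 ± 0.59 on day 8 against Control (adjusted p = 0.41), -0.47 ± 0.65 against No-BAL (adjusted p = 0.58) and 0.38 ± 0.65 against Empty-BAL (adjusted p = 0.67). Empty-BAL differed from Control by 0.31 ± 0.59 (adjusted p = 0.68) and from No-BAL by -0.85 ± 0.65 (adjusted p = 0.33). The 95% interval for day 8 against Control ran from -0.68 to 2.06, and with only those 2 groups fitted the difference was called (adjusted p = 0.0039). Empty-BAL against Control was 1.38 without Empty-BAL replicate 1 (adjusted p = 0.033) and -0.76 without replicate 2 (adjusted p = 0.16). Over fits without 1 library, Empty-BAL against No-BAL ran from -1.92 to 0.22, and day 8 against Empty-BAL from -0.69 to 1.45. The descriptive change in No-BAL against Control was 1.16 ± 0.59.

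**Figure D3:**
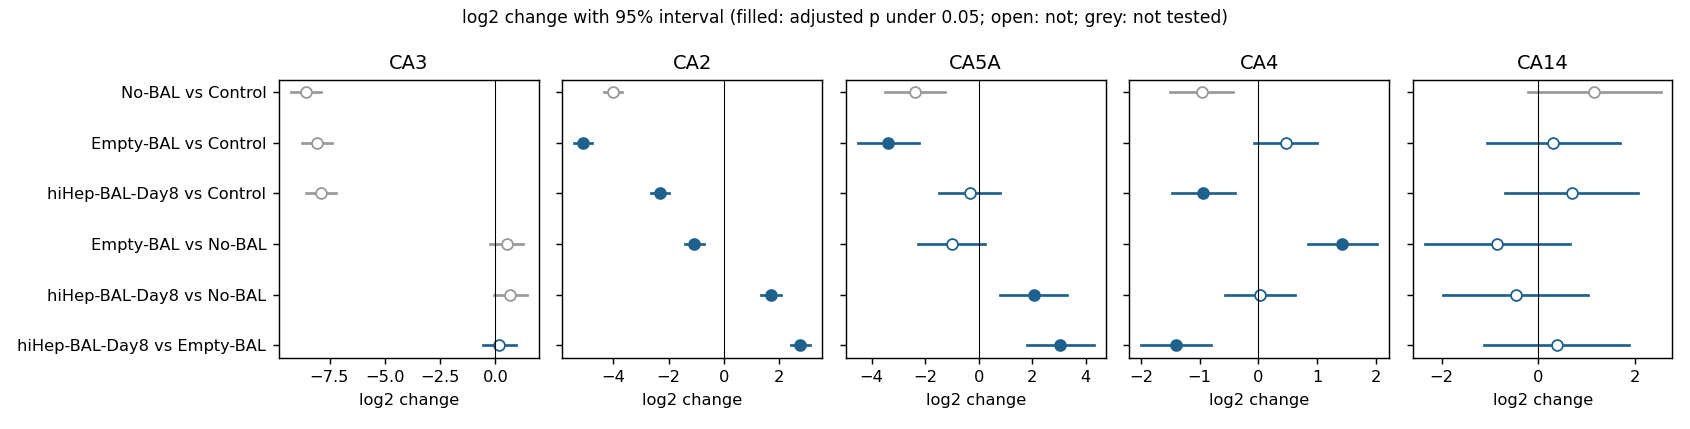
Log2 change of each member on the log2(FPKM + 1) scale in the 6 comparisons, with limma's 95% interval as a bar; filled points had an adjusted p under 0.05, open points did not, and grey points were not tested; the horizontal scales differ. CA2 and CA5A are higher on day 8 than in both failure groups, and the open CA3 point compares values near 0.

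Counted over the members tested, limma called 3 of 5 in hiHep-BAL-Day8 against Empty-BAL (CA2 and CA5A higher, CA4 lower), where 40.2% of all 12180 genes tested were called, 22.6% higher and 17.6% lower. Against No-BAL it called 2 of 4 (CA2 and CA5A higher), beside 47.3% of all genes, 22.5% higher and 24.8% lower. Against Control day 8 had 2 of 4 (CA2 and CA4 lower), beside 32.2%, 15.1% higher and 17.1% lower. Empty-BAL had 2 of 4 against Control (CA2 and CA5A lower), beside 53.7%, 24.4% higher and 29.3% lower. It had 2 of 4 against No-BAL (CA2 lower, CA4 higher), beside 34%, 12.6% higher and 21.4% lower. With so few members, and with the filter favouring the directions of the CA4 calls, nothing about the set as a whole is read from these counts. In No-BAL against Control, where no member was tested, 49.4% of all genes were called, 25.2% higher and 24.2% lower, and the libraries of the groups did not overlap for any of the 5 members, as for 74.1% of all genes.

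If the 3 Control libraries and the 2 hiHep-BAL-Day8 libraries were each averaged into 1, in case they are not separate animals, limma called only CA2 in Empty-BAL against Control among all of these. The other members' directions were kept in that fit, with adjusted p of 0.058 for CA2, 0.15 for CA5A and 0.13 for CA4 in hiHep-BAL-Day8 against Empty-BAL, where 3 of 5 members had an unadjusted p under 0.05.

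Summed over all 15 carbonic anhydrase genes in the table, the family's level was lower wherever CA3 was, and another gene led it. The sum was 568 to 572 FPKM in Control, 43.6 and 36.1 in No-BAL, 16.97 and 41.0 in Empty-BAL, 97.0 on day 4, and 107 and 101 on day 8. CA3 made up 69.3% to 70.2% of it in Control, CA5A 17.2% to 18.0% and CA2 10.8% to 11.2%. Since CA3 was chosen for its loss, the lower sum and the change of leading gene largely follow from that choice. The sums and shares are descriptions. On day 8 CA5A led, with 74.0% and 77.8%, and CA2 held 11.6% and 11.15%, close to its Control share. In No-BAL CA14 led in replicate 1 with 41.2%, and CA5A led in replicate 2 with 52.5%. The members together held 99.3% to 99.5% of the sum in Control and 66.3% in Empty-BAL replicate 1, the lowest share of any library.

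**Figure D4:**
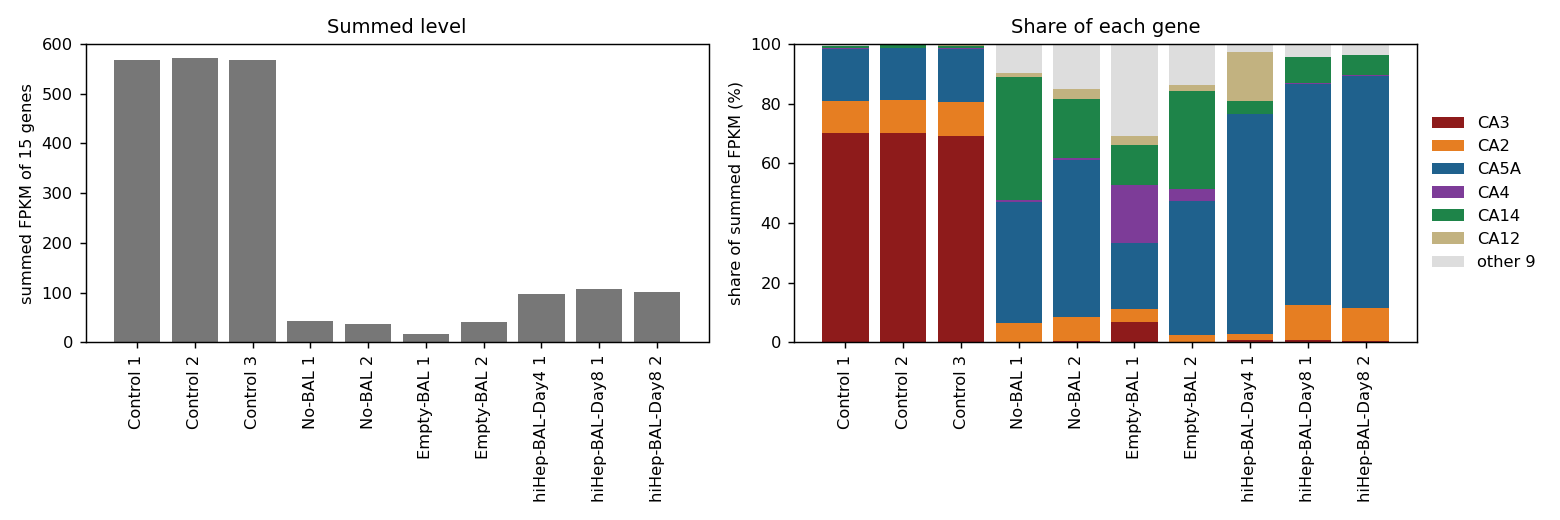
Summed FPKM of the 15 carbonic anhydrase genes found (left, bars from 0) and the percentage of that sum held by each gene (right, stacked to 100%) in each of the 10 libraries. CA3 holds about 70% of the sum in Control and CA5A holds 74.0% and 77.8% of a smaller sum on day 8.

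The ratio of CA5A to CA2 within a library, both being levels per length, was 1.56 to 1.61 in Control. It was 6.26 and 6.31 in No-BAL, 5.28 and 17.9 in Empty-BAL, 34.4 on day 4, and 6.40 and 6.98 on day 8. In the day 4 library CA5A was thus near its day 8 level while CA2, at 2.07 FPKM, was below both No-BAL libraries.

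Of the other 11 carbonic anhydrases 10 were found in the table, and 5 had enough signal to be tested. CA1, CA5B, CA6, CA7 and CA10 did not reach 1 FPKM in any library, CA6 and CA7 being listed at 0 throughout. CA5B, the other mitochondrial form, was at most 0.808 FPKM. CA8, a catalytically inactive relative, was at 0.602 to 0.669 FPKM in Control, 1.81 and 3.34 in No-BAL and 1.86 and 1.84 in Empty-BAL, and at 0.361 and 0.235 on day 8. It was higher in No-BAL than in Control (log2 change 1.09 ± 0.18, adjusted p = 0.002 by limma) and lower on day 8 than in Empty-BAL (-1.14 ± 0.20, adjusted p = 0.0037 by limma). CA8 reached 1 FPKM only in No-BAL and Empty-BAL, so the filter favours both directions, and nothing further is read from them.

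CA12, a membrane-spanning form, was at most 0.0812 FPKM in Control and at 0.634 and 1.18 FPKM in No-BAL (log2 change 0.81 ± 0.15, adjusted p = 0.0036 by limma). The means differed 12.5-fold, since the added 1 shrinks changes at such low levels, as it does for CA8 and CA9. CA9, known as a hypoxia-induced surface form, was higher than Control in Empty-BAL and on day 8 (log2 change 0.56 in both, adjusted p = 0.032 and 0.046 by limma), at no more than 1.72 FPKM. CA11 and CA13 were called in none of the 6 comparisons by limma, and neither had an unadjusted p under 0.05 in any (0 of 6 for each gene). CA13 belongs with CA1, CA2 and CA3 to a gene cluster in mammalian genomes, and at 0.149 to 1.69 FPKM its libraries in Control overlapped with those of No-BAL, Empty-BAL and day 8. Among the 5 tested, limma called 2 in No-BAL against Control, 3 in Empty-BAL against Control and 1 on day 8 against Control, all higher, beside 25.2%, 24.4% and 15.1% of all genes. Day 8 had 2 called lower against each failure group, beside 24.8% (No-BAL) and 17.6% (Empty-BAL) of all genes, and Empty-BAL against No-BAL had 0, with adjusted p of 0.24 to 0.54 and 0 of the 5 at an unadjusted p under 0.05. CA8, CA9, CA11 and CA12 reached 1 FPKM in no Control library and passed the filter only through groups where they were higher. The filter thus favours the directions of these calls, and nothing is read from the counts.

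The enzymes that use bicarbonate were read beside CA5A, since its product is their substrate. CPS1 starts the urea cycle and PC gluconeogenesis. PCCA and PCCB form propionyl-CoA carboxylase, MCCC1 and MCCC2 form methylcrotonyl-CoA carboxylase of leucine breakdown, and ACACA makes malonyl-CoA for fatty acid synthesis. Of 8 listed genes 7 were found and tested. In No-BAL against Control 5 of 7 were called lower, beside 24.2% of all genes, and none was called higher. The median log2 change was -1.49, against 0.04 for all genes. CPS1 and PC were the 2 not called (-1.58 ± 1.27, adjusted p = 0.33, and -1.07 ± 0.58, adjusted p = 0.16, by limma). Both SE carry a gap between the Empty-BAL libraries, which are not part of that comparison. In No-BAL CPS1 was at 74.0 and 134 FPKM and PC at 115 and 121, below all their Control values of 284 to 311 and 238 to 259. In Empty-BAL all 7 fell, beside 29.3% of all genes (median -2.76, against -0.03 for all genes).

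On day 8 these genes split. Against Empty-BAL 6 of 7 were called higher, beside 22.6% of all genes (median 2.32, against 0.05 for all genes), PCCB being the exception (0.87 ± 0.40, adjusted p = 0.12 by limma). Against No-BAL ACACA, PCCA and MCCC2 were called higher, 3 of 7 beside 22.5% of all genes, and none was called lower (median 1.33). PCCB, at 33.7 and 36.3 FPKM on day 8, was below both No-BAL libraries, at 42.2 and 46.3. That difference was not called (-0.33 ± 0.40, adjusted p = 0.52 by limma). Against Control PCCB and MCCC1 were still lower (-1.89 ± 0.36, adjusted p = 0.006, and -0.92 ± 0.24, adjusted p = 0.022, by limma) and the other 5 were not called. CPS1 was at 564 and 560 FPKM on day 8, above all Control values of 284 to 311, a difference that was not called (0.90 ± 1.27, adjusted p = 0.63 by limma). The SE there again carries the gap between the Empty-BAL libraries. PC was at 135 and 134 FPKM on day 8 against 238 to 259 in Control, but at 327 in the day 4 library.

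Empty-BAL replicate 1 was the lowest library for all 7 of these genes but ACACA, as it was for CA5A. CPS1 was at 1.60 FPKM there and at 105 in replicate 2, and the ratio of CPS1 to CA5A was 0.424 and 5.71. That ratio was 2.89 to 3.18 in Control, 4.19 and 7.06 in No-BAL, 2.76 on day 4, and 7.13 and 7.14 on day 8.

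**Figure D5:**
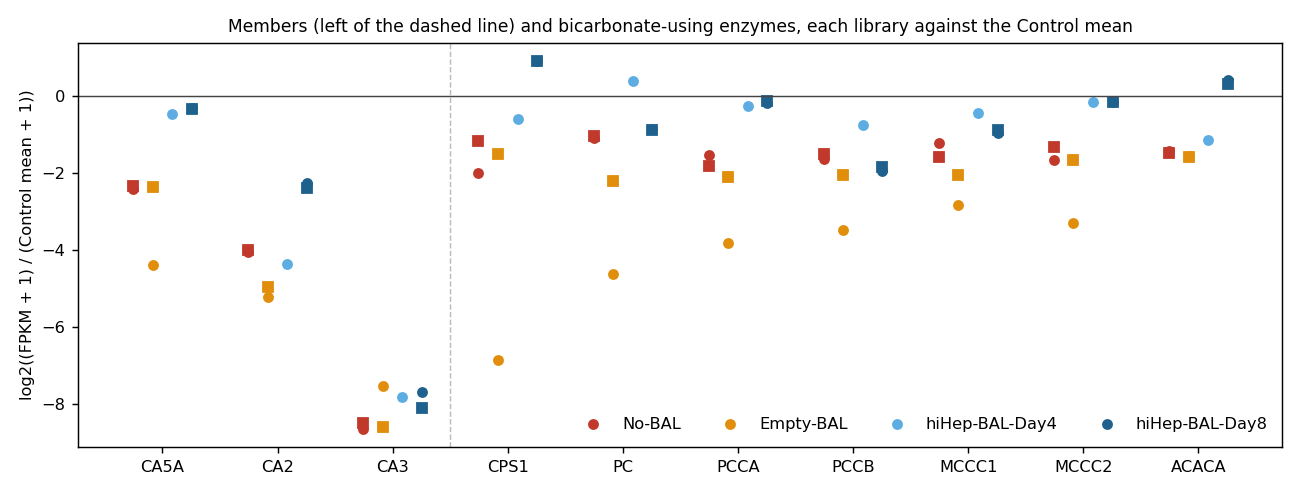
Log2 ratio of (FPKM + 1) in each library to the Control mean + 1 for CA5A, CA2 and CA3 and for 7 bicarbonate-using enzymes, coloured by group, with replicate 1 as a circle and replicate 2 as a square; the horizontal line is the Control mean. CA5A, PCCA and MCCC2 lie just under the line on day 8, CPS1 above it, and CA3 more than 7 log2 units below it in every group.

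Transporters of bicarbonate, protons and lactate showed no common direction. Of 23 listed genes all were found and 12 were tested. In No-BAL against Control SLC26A6, an anion exchanger, and SLC16A1, a lactate carrier, were among those that rose (log2 changes 1.39 ± 0.28 and 0.64 ± 0.21, adjusted p = 0.0045 and 0.035 by limma). SLC9A8 fell (-0.99 ± 0.18, adjusted p = 0.0031 by limma), and the median was -0.24. In hiHep-BAL-Day8 against Empty-BAL SLC26A1, a sulfate and oxalate exchanger, was higher (2.28 ± 0.71, adjusted p = 0.035) and SLC26A6 lower (-1.64 ± 0.30, adjusted p = 0.0045 by limma), with the other 10 not called. SLC26A1 was at 1.73 and 16.9 FPKM in the Empty-BAL libraries and at 32.7 and 33.4 on day 8, below Control at 88.6 to 99.0.

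The genes whose log2(FPKM + 1) correlated most highly with CA3 over the 10 libraries shared its step from Control to all other groups. They were LONRF1 (Pearson r = 0.997), THRSP (0.991), DGAT2 (0.991), AKAP12 (0.990), PER2 (0.990) and TNFAIP3 (0.989). THRSP and DGAT2 act in fat synthesis, PER2 in the circadian clock and TNFAIP3 in restraint of NF-kB signalling. DGAT2 was at 72.1 to 84.9 FPKM in Control and at 0.450 to 1.45 in all other libraries, and THRSP at 36.8 to 39.5 and 0.193 to 2.17. These r values rest on the distance between 3 Control libraries and the remaining 7.

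Genes that tracked CA2 were RAB17 (r = 0.986), TTC36 (0.982) and GCH1 (0.982), all higher on day 8 than in No-BAL, in Empty-BAL and on day 4. For GCH1 the step was small, from 20.3% of Control in No-BAL to 27.1% on day 8. RAB17, a small GTPase of epithelial traffic, was at 139 to 152 FPKM in Control, 4.33 to 13.7 in No-BAL, Empty-BAL and on day 4, and 26.1 and 28.5 on day 8. CA5A was followed by ADH4 (0.997), an alcohol dehydrogenase, DDAH1 (0.993), which breaks down methylated arginines, and MCCC2 (0.993). ADH4 was at 65.9 to 70.9 FPKM in Control, 48.5 on day 4, and 51.6 and 52.3 on day 8. In the Empty-BAL libraries ADH4 was at 1.11 and 7.33, lower in replicate 1, as CA5A was.

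CA4 was nearest to PLXND1 (0.969), IRF8 (0.967) and PHACTR1 (0.948). IRF8, a transcription factor of macrophages and dendritic cells, was at 78.7 and 40.2 FPKM in Empty-BAL and at 29.7 to 34.3 in Control. CA14 was nearest to HIGD2A (0.965), NDUFB9 (0.924) and ATP5PO (0.918), whose products belong to the mitochondrial respiratory machinery. NDUFB9 was at 436 and 239 FPKM in No-BAL and at 133 and 245 in Empty-BAL, high and low in the same libraries as CA14. Between the members, r over the 10 libraries was 0.894 for CA3 with CA2, 0.799 for CA2 with CA5A and 0.580 for CA3 with CA5A, and it was 0.431, 0.107 and -0.351 for CA4 with CA3, CA2 and CA5A. CA14 had negative r with every other member, at -0.456 with CA3, -0.251 with CA2, -0.0549 with CA5A and -0.459 with CA4.

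Of the members with a position, CA3 and CA14 share a chromosome. On Sscrofa11.1, by RefSeq, CA3 (ENSSSCG00000006141) spans bases 51227485 to 51237861 of chromosome 4, and CA14 (ENSSSCG00000027875) bases 98821577 to 98828934 of it. CA5A (ENSSSCG00000035629) lies on chromosome 6 at 1495615 to 1539390, and CA4 (ENSSSCG00000023186) on chromosome 12 at 37962951 to 37972443. All 4 are annotated as protein-coding. CA2 is ENSSSCG00000006140 in the table. How strand entered the counting is not stated in the labels, and reads of an overlapping neighbour cannot be told from those of a member.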

How the data were processed

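Total RNA from pig liver was sequenced in paired ends (TruSeq kit, Illumina HiSeq), per the labels' protocols. The authors deposited 1 table of FPKM for 31905 genes and 10 libraries. Its header names no unit, and FPKM was taken from the form of the values. The programs HISAT2, Cufflinks and HTSeq are named, and so are the pig build Sscrofa11.1 and the mouse build mm10, in the submitters' processing notes without roles. Build mm10 was not needed. FPKM are relative to each library's total, so abundant genes that rise lower all others. Deposited FPKM summed to 439925 to 829970 per library. Low values showed no steps of whole reads: of 3273 genes under 0.5 FPKM in Control replicates 1 and 3, at most 31 shared a ratio (log2 ratio rounded to 0.001). Read depth is unknown, so the text has no counting intervals.

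The table itself gave symbols for 16497 genes, and RefSeq-based names gave 851 more. Values were tested as log2(FPKM + 1) with limma 3.58.1 in R 4.3.3 over the 12180 genes that reached 1 FPKM in 2 or more libraries. All 10 libraries entered 1 fit with a mean per group and a mean-variance trend (5 residual degrees of freedom, prior 2.7). Tests were two-sided, with Benjamini-Hochberg adjustment over all genes of a comparison and calls at 0.05. The fit was tested on simulated data. The single day 4 library was not tested. Tables and plots used Python 3.11.15, pandas 2.3.3, numpy 2.4.6, scipy 1.17.1 and matplotlib 3.10.9.

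Of 98 genes in 10 lists (other carbonic anhydrases, bicarbonate-using enzymes, transporters and markers of 7 cell types), 86 were found. The text names all members, all other carbonic anhydrases and bicarbonate-using enzymes, up to 4 called transporters in 2 comparisons, the genes nearest in pattern (6 for CA3, 3 for each other member, mean of at least 10 FPKM in their highest group) and the 2 most abundant markers of a list. Further muscle and fat markers and ENSSSCG00000018734 were named after their values were seen. A transporter that the rule would name is not reported here. The members and lists were chosen with earlier results of these data known. Alternatives tried were another pseudocount, no filter, upper-quartile scaling, no trend, fits of 2 groups, averaged replicates, each library left out, a replicate block, and summed rows of a symbol. No protein or promoter sequence was used here.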

Additional observations from a re-analysis of the deposited data

Results flagged for a closer look

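CA12 stood out in the single hiHep-BAL-Day4 library, which enters no test. It was at 15.7 FPKM there and at no more than 1.18 FPKM in the other 9 libraries, and made up 16.2% of the summed carbonic anhydrase level of that library. There is no second library of that day.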

How the results depend on the processing

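The members' log2 changes kept their direction in every alternative fit over all libraries, and scaling to the upper quartile reversed none. That scaling raised the median change of all genes by 0.165 to 0.198 in the 4 comparisons of Empty-BAL or hiHep-BAL-Day8 with Control or No-BAL. The share of calls that were higher went from 45.4% to 57.0% (Empty-BAL against Control), 46.9% to 62.0% (hiHep-BAL-Day8 against Control), 37.0% to 63.4% (Empty-BAL against No-BAL) and 47.5% to 60.1% (hiHep-BAL-Day8 against No-BAL). CA4 in Empty-BAL against Control was then called at 0.62. No filter, no trend and summed rows of a symbol changed no call of a member.

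With 0.1 added in place of 1, the untested changes were larger: in No-BAL against Control CA3 -11.46, CA2 -4.38 and CA4 -2.18, and for CA3 -9.92 in Empty-BAL and -9.05 in hiHep-BAL-Day8 against Control, and 1.55 and 2.41 against No-BAL. Tested changes of low genes moved too, with no change of call: CA4 to -2.79 and CA3 to 0.87 in hiHep-BAL-Day8 against Empty-BAL, CA4 to 2.86 and CA2 to -1.65 in Empty-BAL against No-BAL, and CA4 to -2.11 in hiHep-BAL-Day8 against Control.

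With the Control and the hiHep-BAL-Day8 libraries averaged, calls were lost, at unchanged size, for CA5A in Empty-BAL against Control (-3.38), CA2 (-2.31) and CA4 (-0.94) in hiHep-BAL-Day8 against Control, CA2 (-1.07) and CA4 (1.43) in Empty-BAL against No-BAL, CA2 (1.71) and CA5A (2.05) in hiHep-BAL-Day8 against No-BAL, and CA2 (2.78), CA5A (3.05) and CA4 (-1.40) in hiHep-BAL-Day8 against Empty-BAL. Limma then called 1 member in Empty-BAL against Control and 0 in the other 4 tested comparisons, where 1 of 4, 2 of 4, 1 of 4 and 3 of 5 had an unadjusted p under 0.05. Of all genes it called 419 in No-BAL and 692 in Empty-BAL against Control, 17 in hiHep-BAL-Day8 against Control, 299 against No-BAL and 34 against Empty-BAL, and 0 in Empty-BAL against No-BAL (2657 at an unadjusted p under 0.05). That fit has fewer samples.

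With only the 2 groups compared in the fit, CA5A (-0.33) and CA14 (0.69) were called in hiHep-BAL-Day8 against Control, making 4 members and 8384 genes. CA2 (-1.07) and CA4 (1.43) were lost in Empty-BAL against No-BAL, leaving 0 members (2 of 4 at an unadjusted p under 0.05) and 0 genes (2659 so). CA5A (3.05) and CA4 (-1.40) were lost in hiHep-BAL-Day8 against Empty-BAL, leaving 1 member and 2353 genes.

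Same-numbered replicates deviated from their group means together with correlations of -0.0486 to 0.137, so the numbers were not taken to pair libraries. With the replicate number as a block over Control, No-BAL and Empty-BAL, CA2 in Empty-BAL against No-BAL (-1.07) was not called, which left 1 member, and the genes called fell to 3010 in No-BAL against Control, 3737 in Empty-BAL against Control and 407 in Empty-BAL against No-BAL.

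Leaving out each library in turn gave these lowest and highest log2 changes where a call, a direction or an untested value moved. In Empty-BAL against Control they were -8.59 and -7.54 (CA3), 0.092 and 0.84 (CA4), and -0.76 and 1.38 (CA14). In Empty-BAL against No-BAL they were -0.018 and 1.04 (CA3), -2.01 and 0.0044 (CA5A), and -1.92 and 0.22 (CA14). In hiHep-BAL-Day8 against Control they were -0.34 and -0.31 (CA5A), and -1.06 and -0.82 (CA4). In hiHep-BAL-Day8 against No-BAL they were 2.00 and 2.10 (CA5A), -0.092 and 0.15 (CA4, -0.022 without No-BAL replicate 2), and -1.08 and 0.13 (CA14). In hiHep-BAL-Day8 against Empty-BAL they were -0.36 and 0.69 (CA3, -0.053 without hiHep-BAL-Day8 replicate 1), and -0.69 and 1.45 (CA14). The number of members called moved in every comparison in which members were tested. Genes called ranged from 1723 (without hiHep-BAL-Day8 replicate 1) to 5956 (without Empty-BAL replicate 2) in hiHep-BAL-Day8 against Control, from 2768 to 6679 (without Empty-BAL replicate 2) in Empty-BAL against No-BAL, from 3418 (without hiHep-BAL-Day8 replicate 1) to 7568 in hiHep-BAL-Day8 against No-BAL, and from 2423 (without hiHep-BAL-Day8 replicate 1) to 6798 in hiHep-BAL-Day8 against Empty-BAL. A group left with 1 library was assumed to vary like the others, and the cause of these changes was not tested.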
